A study of Mus musculus with 61 samples.

Results

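Cbln1, Cbln3, Neurod1, Zic1 and Zic2 were followed as genes of the cerebellar granule cell across the adult mouse brain. They are 5 of the 15515 genes that a RefSeq identifier on the array named and that were well above background in at least 1 fraction. For each gene the probe with the highest mean intensity was used: A_51_P307721 for Cbln1, A_52_P246189 for Cbln3, A_52_P408391 for Neurod1, A_52_P428654 for Zic1 and A_51_P364592 for Zic2. Brains of 6 male C57BL/6J mice, aged 8 weeks, were cut whole into fractions of 1 mm, each made of 200 sections of 5 µm, and the RNA of each fraction was hybridised in 1 colour (Cy3) to an Agilent array, which gave 61 arrays. All mice were littermates of this inbred strain, and their brains were perfused with the RNA-preserving solution RNAlater. Each of 3 planes was cut in 2 mice, and the cuts of mice Co, So and Ho were slightly oblique to the plane. The coronal mice C and Co gave 13 and 16 fractions from caudal to rostral. The sagittal mice S and So gave 9 and 10 fractions from left to right, and the 9 fractions of mouse S, numbered from 2 in the labels, are called S1 to S9 here. The horizontal mice H and Ho gave 6 and 7 fractions from dorsal to ventral. The study matched 56 of the fractions between the mice of a plane into 28 pairs, called c1 to c13, s1 to s9 and h1 to h6 here. It chose the pairs for the highest correlation over its probes on these same arrays. Where several fractions qualified, their anatomical order decided. The fractions Co1, Co13, Co16, So1 and Ho1 had no partner and entered no test.

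Granule cells are small glutamatergic neurons of the cerebellar cortex and the most numerous neurons of the brain. Their axons, the parallel fibres, contact the dendrites of Purkinje cells. Cbln1 and Cbln3 encode cerebellins, secreted proteins that granule cells release at these contacts. Cbln1 binds neurexins on the parallel fibre, and Cbln3 is secreted together with Cbln1. Neurod1 encodes a basic helix-loop-helix transcription factor needed for granule cell differentiation. Zic1 and Zic2 encode zinc finger transcription factors of the granule cell lineage. Cbln3 is known as almost restricted to granule cells, while Cbln1, Neurod1, Zic1 and Zic2 are also used by other neurons. A fraction holds RNA of all its cells, so fewer cells of a type and less RNA per cell cannot be told apart. With 1 mouse in each series, p-values measured the spread between the 2 mice of a plane within pairs. The pairs were chosen for likeness in these same data, which can make that spread too small.

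The promoters of members, all of which were highest at cerebellar level in both coronal mice, are shown as the 250 bases before the annotated start, from RefSeq on build GRCm38.p6. The table used here held 3 of the 5 members, Cbln3, Neurod1 and Zic1, and had no entry for Cbln1 or Zic2. Capitals mark every match to the E-box, CANNTG, the letters bound by basic helix-loop-helix factors such as the product of Neurod1, searched on both strands.
Cbln3 promoter, chr14:55884257-55884506, minus strand: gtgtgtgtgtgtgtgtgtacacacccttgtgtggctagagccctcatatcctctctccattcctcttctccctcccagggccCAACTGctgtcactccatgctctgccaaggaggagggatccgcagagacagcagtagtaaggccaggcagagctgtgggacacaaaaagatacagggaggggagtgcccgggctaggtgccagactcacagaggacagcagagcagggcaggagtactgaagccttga
Neurod1 promoter, chr2:79456637-79456886, minus strand: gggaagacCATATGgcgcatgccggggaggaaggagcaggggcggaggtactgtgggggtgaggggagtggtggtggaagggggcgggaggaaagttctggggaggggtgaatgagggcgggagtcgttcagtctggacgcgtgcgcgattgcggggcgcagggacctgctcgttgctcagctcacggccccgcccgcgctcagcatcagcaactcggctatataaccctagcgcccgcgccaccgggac
Zic1 promoter, chr9:91365769-91366018, minus strand: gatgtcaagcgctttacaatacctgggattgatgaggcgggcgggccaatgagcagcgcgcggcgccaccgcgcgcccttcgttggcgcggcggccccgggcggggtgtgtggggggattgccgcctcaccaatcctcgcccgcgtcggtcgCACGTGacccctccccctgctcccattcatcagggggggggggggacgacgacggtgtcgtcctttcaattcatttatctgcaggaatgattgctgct
Each of the 3 windows held 1 E-box, CAACTG in Cbln3 beginning 168 bases before the start, CATATG in Neurod1 at 242 bases and CACGTG in Zic1 at 98 bases. An E-box was present in 66.2% of all 32851 mouse promoters of this length. The NeuroD-type E-box (CAGATG, or CATCTG on the other strand) was present in 14.4% of all promoters and in none of the 3. The Zic-type letters CAGCNGG, or CCNGCTG on the other strand, were present in 21.4% and in none of the 3. The GC content was 57.6% for Cbln3, 67.6% for Neurod1 and 66.0% for Zic1, against a median of 52.4% over all promoters.

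All levels are log2 intensities relative to the 75th percentile of the same array, so that a difference of 1 is a doubling, and levels of different genes are not compared. The probes of Cbln1, Neurod1 and Zic1 were well above background on all 61 arrays. The Zic2 probe was well above background on 60, with the exception of So2, and the Cbln3 probe on 56, with the exceptions of So2, Co11, Co12, Co13 and Co15, where the values of this probe bound the level from above only. The second probe of Cbln3, A_51_P273888, was well above background on all 61 arrays, these included. The second probe of Cbln1, Cbln3 and Zic1 followed the first with a Pearson r of 0.992, 0.992 and 0.998 over the 61 fractions. The scanner software marked the Zic1 spot as uneven on 16 arrays, and these values were kept. The 75th percentile of the arrays ran from 740 to 1971 intensity units, 161 to 852 times the negative controls. The share of probes well above background ran from 57.9% to 73.1%, lowest in So2.

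Along the coronal axis all 5 genes formed a plateau in the cerebellar pairs c2 to c4 and fell on both sides of it. Over the 13 fractions of mouse C the span from the lowest to the highest fraction was 8.62 for Cbln3, 5.38 for Cbln1, 5.15 for Neurod1, 3.92 for Zic1 and 2.95 for Zic2 on the log2 scale. The highest fraction was C3 for every member. In mouse Co it was Co3, Co4 or Co5, the partners of C2, C3 and C4.

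**Figure D1:**
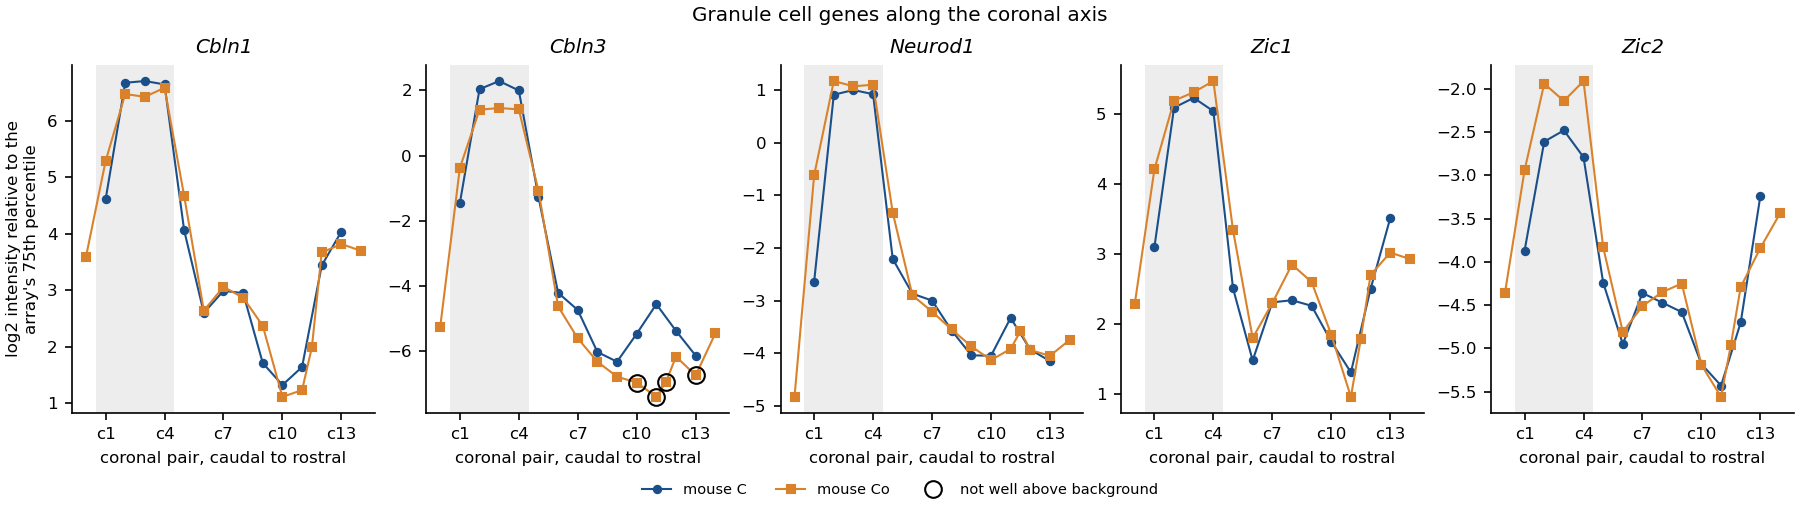
Level of each gene (y axis, log2 intensity relative to the array's 75th percentile, a separate scale for each gene) in the coronal fractions of mouse C (circles) and mouse Co (squares), placed by pair from caudal to rostral (x axis). The unpaired Co1, Co13 and Co16 stand at their place in the order, the grey band covers c1 to c4, and open rings mark values not well above background. All 5 genes peak in c2 to c4, and Cbln1, Zic1 and Zic2 rise again in c12 and c13.

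Cbln1 stood at 6.68, 6.71 and 6.65 in C2, C3 and C4 and at 6.48, 6.43 and 6.59 in Co3, Co4 and Co5. It was lower at the caudal end, with 4.61 in C1, 5.29 in Co2 and 3.59 in Co1. From c6 to c11 its lowest fractions were C10 with 1.32 and Co11 with 1.11. Thus the plateau of both mice lay apart from every other coronal fraction, and the mice differed by at most 0.68 in a coronal pair, at c1.
Cbln3 stood at 2.04, 2.29 and 2.00 in C2, C3 and C4 and at 1.41, 1.46 and 1.42 in Co3, Co4 and Co5. Rostral to c5 it lay between -4.22 and -6.34 in mouse C and between -4.64 and -7.42 in mouse Co. It was the one member with a large gap between the mice in the forebrain, with -4.57 in C11 and -7.42 in its partner Co12, the latter not well above background.

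Neurod1 stood at 0.91, 1.00 and 0.92 in C2, C3 and C4 and at 1.17, 1.07 and 1.10 in Co3, Co4 and Co5. The caudal end separated the mice, with -2.64 in C1 and -0.62 in Co2, and the unpaired Co1 was its lowest coronal fraction in that mouse with -4.83. From c8 to c13 it stayed between -3.33 and -4.15 in both mice.
Zic1 stood at 5.09, 5.23 and 5.04 in C2, C3 and C4 and at 5.19, 5.31 and 5.47 in Co3, Co4 and Co5. Its lowest fractions were C11 with 1.31 and Co12 with 0.96, a pair of matched positions.
Zic2, which had the smallest span, stood at -2.61, -2.48 and -2.79 in C2, C3 and C4 and at -1.94, -2.14 and -1.91 in Co3, Co4 and Co5. Its lowest fractions were the same as those of Zic1, C11 with -5.43 and Co12 with -5.56. The plateau of Zic2 was higher in mouse Co than in mouse C in all 3 pairs.

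The plateau had a steep rostral edge. Between the pair means of c4 and c5 the level dropped by 2.88 for Cbln3, 2.78 for Neurod1, 2.32 for Zic1, 2.25 for Cbln1 and 1.69 for Zic2, each larger than the 95% limit for a difference of 2 pair means, which ran from 0.84 for Cbln1 to 1.64 for Cbln3. Between c5 and c6 Cbln3 dropped by a further 3.26, while Zic2 dropped by 0.84, within its limit of 0.87. When the 13 pairs were put in order of level, the neighbours within the plateau did not differ beyond their limit for any gene. The step from the plateau to c1 passed the limit for all 5 genes. It was the only step between neighbours in the order to do so for Cbln1, Zic1 and Zic2, while for Cbln3 and Neurod1 the step from c5 to c6 passed as well.

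The share of the summed intensity of a mouse's coronal fractions that lay in c2 to c4 ordered the genes from the most to the least confined. It was 92.8% in mouse C and 85.1% in mouse Co for Cbln3, 84.5% and 77.5% for Neurod1, 75.6% and 64.2% for Cbln1, 65.6% and 58.2% for Zic1, and 50.2% and 51.0% for Zic2. Equal levels would give 23.1% and 18.8%, since the mice were cut into different numbers of fractions. The GABA-A receptor subunit gene Gabra6, a marker of mature granule cells, had shares of 92.3% and 84.4%, close to those of Cbln3.

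The caudal contrast, the mean of c1 to c4 minus the mean of c5 to c13, asked how much higher each gene was at cerebellar level. All 5 genes were higher, and 51.7% of all 36573 probes tested passed the test, 31% as higher and 20.6% as lower. Cbln3 was higher by 6.43 ± 0.33 (SE), with an adjusted p of 1.3e-16 from limma. The SE comes from the spread within all 28 pairs and takes the fractions as independent, while only 2 mice were cut coronally. Cbln3 was followed with a probe that was well above background in 15 of the 18 fractions of c5 to c13. Its second probe, well above background in all of them, was higher by 5.86 ± 0.28. Neurod1 was higher by 3.81 ± 0.20, Cbln1 by 3.39 ± 0.17, Zic1 by 2.53 ± 0.18 and Zic2 by 1.96 ± 0.18, which is 14.1-, 10.5-, 5.77- and 3.89-fold. The median over all probes was 0.13 with the 75th percentile as the scale, and 0.01 with the median of each array. Ordered by size, the followed probe of Cbln3 was number 5 of all probes, Neurod1 76, Cbln1 100, Zic1 228 and Zic2 451. As a variation over all 28 pairs, F was 26.8 for Cbln1, 25.7 for Cbln3, 22.3 for Neurod1, 15.3 for Zic1 and 12.0 for Zic2, and all 5 passed, beside 61.3% of all probes.

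The groups of fractions overlapped at the caudal end. In mouse Co the lowest of the 4 caudal fractions lay above the highest of the other 9 for each of the 5 genes. In mouse C this held for Cbln1 only, since C1 was below C5 for Cbln3 and Neurod1 and below C13 for Zic1 and Zic2. Such separation was not counted over all probes, 31% of which passed the contrast as higher. Within each mouse the contrast of Cbln3 was 6.13 in C and 6.74 in Co, that of Neurod1 3.51 and 4.11, that of Cbln1 3.41 and 3.37, that of Zic1 2.40 and 2.66, and that of Zic2 1.64 and 2.28. The difference of the contrast between the mice was tested, and none of the 5 passed, beside 7.09% of all probes, 2.65% as higher and 4.43% as lower in Co. At an unadjusted p under 0.05, a threshold not counted over all probes, 1 of the 5, Zic2, passed. Its difference was 0.65 ± 0.25, with an adjusted p of 0.13 from limma.
Arrays came on 16 slides, and C1 to C4 shared 1 slide. On the slide that held Co5 with Co6, Co7 and Co8, Co5 exceeded the mean of the other 3 by 5.20 for Cbln3, 3.58 for Neurod1, 3.13 for Cbln1, 2.99 for Zic1 and 2.47 for Zic2. With slide as a fixed block all 5 genes were still called, with adjusted p up to 0.028 for Zic1.

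Other genes of the granule cell moved in the same pairs. Of the 13 measured genes in a list of granule cell genes, 11 were higher in the caudal contrast, 1 was lower and 1, Rbfox3, did not pass, with a median of 1.07. Gabra6 was higher by 6.29 ± 0.30 and Chn2, which encodes a GTPase-activating protein for Rac, by 2.32 ± 0.12. Grm4, the metabotropic glutamate receptor of parallel fibres, was higher by 2.06 ± 0.16. Slc17a7, the vesicular glutamate transporter that granule cells share with cortical neurons, differed by -2.23 ± 0.14.
Markers of other cerebellar cells moved with them. All 9 Purkinje cell genes reported here were higher, with a median of 2.96, led by Ppp1r17 with 4.97 ± 0.25 and Pcp2 with 4.66 ± 0.22, and their summed level lay between 245 and 512 in c1 to c4 and between 128 and 254 in c5 to c13. Of 6 Bergmann glia genes 5 were higher, with a median of 1.47, and Fabp7 was not. Their summed level ran from 88.0 to 113 against 38.5 to 163. Of 5 choroid plexus genes 4 were higher with a median of 0.97, and of 7 meningeal fibroblast genes 3 were higher with a median of 0.18. All 3 cerebellar area genes that the study took from another data set, Nek2, Bmp5 and Agtr2, were higher. The part of these cells in the levels of the 5 genes was not tested.

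**Figure D2:**
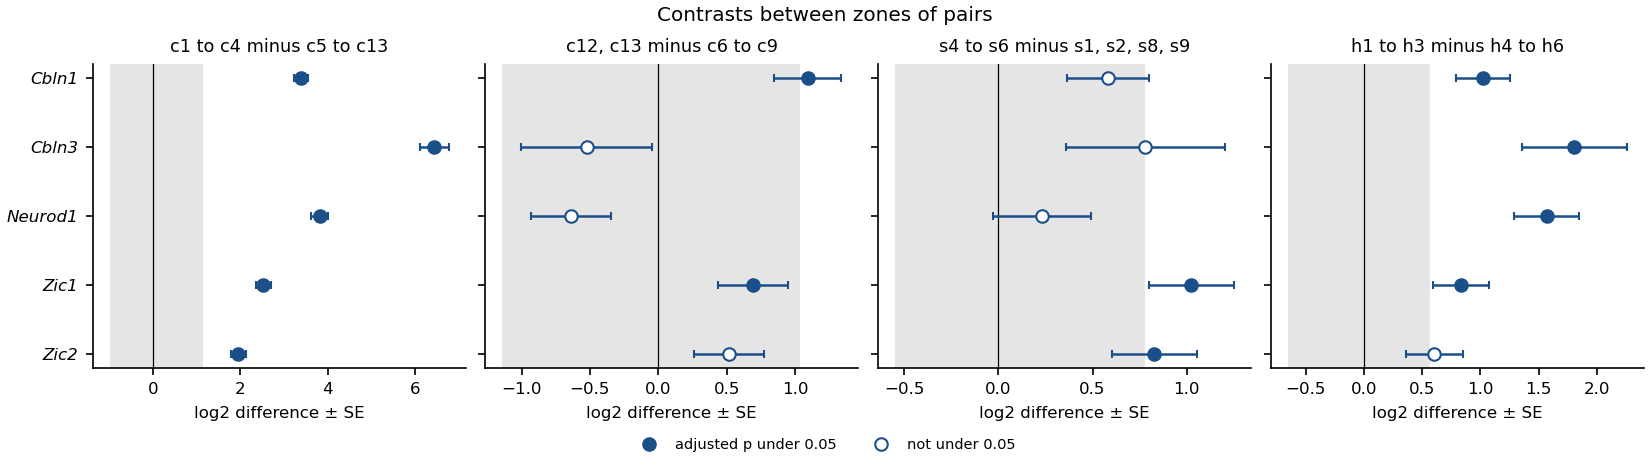
Log2 difference between zones of pairs for the 5 genes (points, with bars of 1 SE, from limma over 28 pairs). Filled points passed an adjusted p of 0.05, open points did not, and the grey band spans the 5th to 95th percentile of all 36573 probes. All 5 genes lie beyond the band in the caudal contrast, and in the rostral contrast Cbln3 and Neurod1 lie below 0 while Cbln1, Zic1 and Zic2 lie above it.

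A second rise at the olfactory end separated the members. In c12 and c13 Cbln1 stood at 3.44 and 4.04 in C12 and C13 and at 3.67 and 3.82 in Co14 and Co15, against 1.64 in C11 and 1.23 in Co12. The unpaired Co16, the most rostral fraction, had 3.70. Zic1 stood at 2.50, 3.51, 2.70 and 3.02 in the same 4 fractions and Zic2 at -4.70, -3.24, -4.29 and -3.84. Cbln3 stood at -5.39, -6.15, -6.18 and -6.76 and Neurod1 at -3.93, -4.15, -3.94 and -4.05. The values of Cbln3 lay within its range from c8 to c11, and those of Neurod1 reached the low end of its own, -4.05 in C10 and -4.13 in Co11.
From c11 to c13 the pair mean rose by 2.50 for Cbln1, 2.13 for Zic1 and 1.96 for Zic2, beyond their limits of 0.84, 0.88 and 0.87, and changed by -0.46 for Cbln3 and -0.47 for Neurod1, within theirs of 1.64 and 1.00. These pairs were chosen after the values were seen, and the fractions of c11 and c13 lay on different slides in both mice.

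The rostral contrast, c12 and c13 minus c6 to c9, called 2 of the 5 genes, beside 37% of all probes, 17.6% as higher and 19.4% as lower. Cbln1 was higher by 1.09 ± 0.25, with an adjusted p of 0.00059, and its 4 rostral values lay above all 8 of the others. Zic1 was higher by 0.69 ± 0.26, with an adjusted p of 0.033, and its groups overlapped. Zic2 differed by 0.52 ± 0.26 (adjusted p = 0.12, or 0.033 with the mouse as a block), Cbln3 by -0.52 ± 0.48 and Neurod1 by -0.64 ± 0.29, with adjusted p of 0.43 and 0.089. On the slide that held C12 with C9, C12 minus C9 was 1.72 for Cbln1, 0.95 for Cbln3, 0.24 for Zic1, 0.11 for Neurod1 and -0.12 for Zic2. The call of Zic1 was lost with slide as a random block (adjusted p = 0.085), with scan day as a block (0.17), without its uneven spots (0.076), without either mouse, and without C6, C8, C9, C12, C13 or Co14. The call of Cbln1 was lost without mouse C (0.081) and with slide as a fixed block (0.40).
In the same contrast all 7 genes of an olfactory bulb list passed, 6 as higher, with a median of 5.49, and their summed level lay between 118 and 154 in c12 and c13 against 8.15 to 20.2 in c6 to c9. All 7 meningeal fibroblast genes were higher as well, with a median of 1.30, and a summed level of 22.6 to 32.2 against 7.98 to 23.4. The part of either in the levels of Cbln1 and Zic1 was not tested.

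Between the cerebellum and the olfactory bulb the members also parted. Zic1 had a lesser rise at c8, with 2.34 in C8 and 2.85 in Co9, above its values of 1.48 in C6 and 1.80 in Co7. The rise from c6 to c8 was 0.96 for Zic1, beyond its limit of 0.88, and 0.47 for Zic2 and 0.29 for Cbln1, within theirs. Over the same step Cbln3 and Neurod1 changed by -1.76 and -0.68, the first beyond its limit of 1.64. These steps too were chosen after the values were seen.
Over the 16 fractions of c6 to c13 Zic1 and Zic2 had a Pearson r of 0.95, Cbln1 and Zic2 of 0.83, Cbln1 and Zic1 of 0.79 and Cbln3 and Neurod1 of 0.77, whereas Neurod1 and Zic1 had -0.35 and Cbln1 and Neurod1 0.07. Over all 61 fractions, which include the cerebellum, the 10 pairs of members had an r between 0.84 and 0.96. The points share mice, slides and the scale of each array.

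Whether the profiles were parallel was tested on the log2 ratios between members, fitted as added rows. All 10 ratios varied over the 28 pairs, with adjusted p from 1.9e-11 for Neurod1 to Zic1 to 5.0e-05 for Cbln1 to Zic2. The 10 ratios come from 5 probes and are not independent. Ratios of other probes were not fitted, and 61.3% of single probes varied over the pairs. The ratio of Cbln3 to Zic2 was higher in the caudal pairs by 4.47 ± 0.31, that of Cbln3 to Zic1 by 3.90 ± 0.26, that of Cbln3 to Neurod1 by 2.62 ± 0.23 and that of Zic1 to Zic2 by 0.57 ± 0.09. Over 14 alternative settings the ratios just named ran, in the same order, from 3.30 to 4.49, 1.78 to 4.07, 1.34 to 2.62 and 0.38 to 1.53. Those with Cbln3 rest on a probe not well above background in Co11, Co12 and Co15. All 10 caudal ratios passed. The ratio of Cbln1 to Neurod1 was -0.42 ± 0.11 with the main scale and 0.48 with background correction by normexp and quantile normalization, so that the order of Cbln1 and Neurod1 depended on the processing.
In the rostral contrast 6 of 10 ratios passed. Cbln1 to Neurod1 differed by 1.73 ± 0.16 and Neurod1 to Zic1 by -1.33 ± 0.15, while Cbln3 to Neurod1 differed by 0.12 ± 0.33 (adjusted p = 0.82) and Zic1 to Zic2 by 0.17 ± 0.13 (adjusted p = 0.30).

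**Figure D3:**
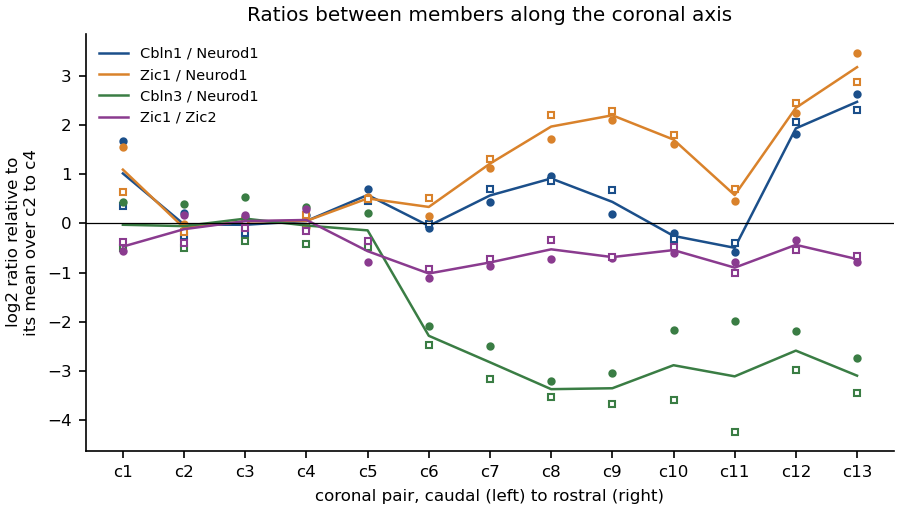
Log2 ratio of the intensities of 4 pairs of genes (y axis, relative to its own mean over c2 to c4) in each coronal pair from caudal to rostral (x axis). Lines are pair means, filled circles mouse C and open squares mouse Co. The ratio of Zic1 to Neurod1 reaches 2.20 at c9 and 3.17 at c13, that of Cbln1 to Neurod1 reaches 2.47 at c13, and that of Cbln3 to Neurod1 lies between -2.28 and -3.37 from c6 on.

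Along the horizontal axis all 5 genes were highest in h2 and h3, below the dorsal surface. Cbln1 stood at 5.34 and 5.34 in H2 and H3 and at 5.40 and 5.34 in Ho3 and Ho4. It was lower toward the base, with 3.29 in H6 and 4.21 in Ho7, and lowest in the unpaired top fraction Ho1, with 1.22. Cbln3 stood at 0.19 and 0.09 in H2 and H3, at 0.32 and -0.02 in Ho3 and Ho4, and at -3.61 in H5 and -1.81 in Ho6. Neurod1 ran from -0.32 in H2 to -3.30 in H5 and from -0.34 in Ho3 to -2.26 in Ho6 among the paired fractions. Zic1 was highest in H3 and Ho4 with 4.49 and 4.45, and Zic2 in the same fractions with -2.35 and -2.41. The ventral fractions of mouse Ho were higher than those of mouse H for all 5 genes, in each of h4, h5 and h6. The differences ran from 0.14 for Zic1 at h4 to 1.80 for Cbln3 at h5, and this direction was not counted over all probes.
The dorsal contrast, h1 to h3 minus h4 to h6, called 4 of the 5 genes as higher, beside 12.6% of all probes, 5.2% as higher and 7.38% as lower. Cbln3 was higher by 1.80 ± 0.45, Neurod1 by 1.57 ± 0.28, Cbln1 by 1.02 ± 0.23 and Zic1 by 0.83 ± 0.24, with adjusted p of 0.0058, 0.00014, 0.0024 and 0.019. Zic2 differed by 0.61 ± 0.24 (adjusted p = 0.11, or 0.019 with the mouse as a block). Without mouse H, and with slide as a fixed block, none of the 5 was called, with the lowest adjusted p for Neurod1, 0.061 and 0.085. That of Zic1 was also lost without mouse Ho, H5, H6 or Ho2, with slide as a random block (adjusted p = 0.098) and without its uneven spots, where the difference was 0.37 and the adjusted p 0.68. On the slide that held H3 with H4, H5 and H6, H3 exceeded the mean of the other 3 by 2.69 for Cbln3, 2.21 for Neurod1, 1.60 for Cbln1, 1.49 for Zic1 and 1.04 for Zic2.
Of 9 Purkinje cell genes 8 were higher in the dorsal contrast as well, with a median of 0.90, and of the other granule cell genes 9 of 13 were higher, with a median of 0.53.

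**Figure D4:**
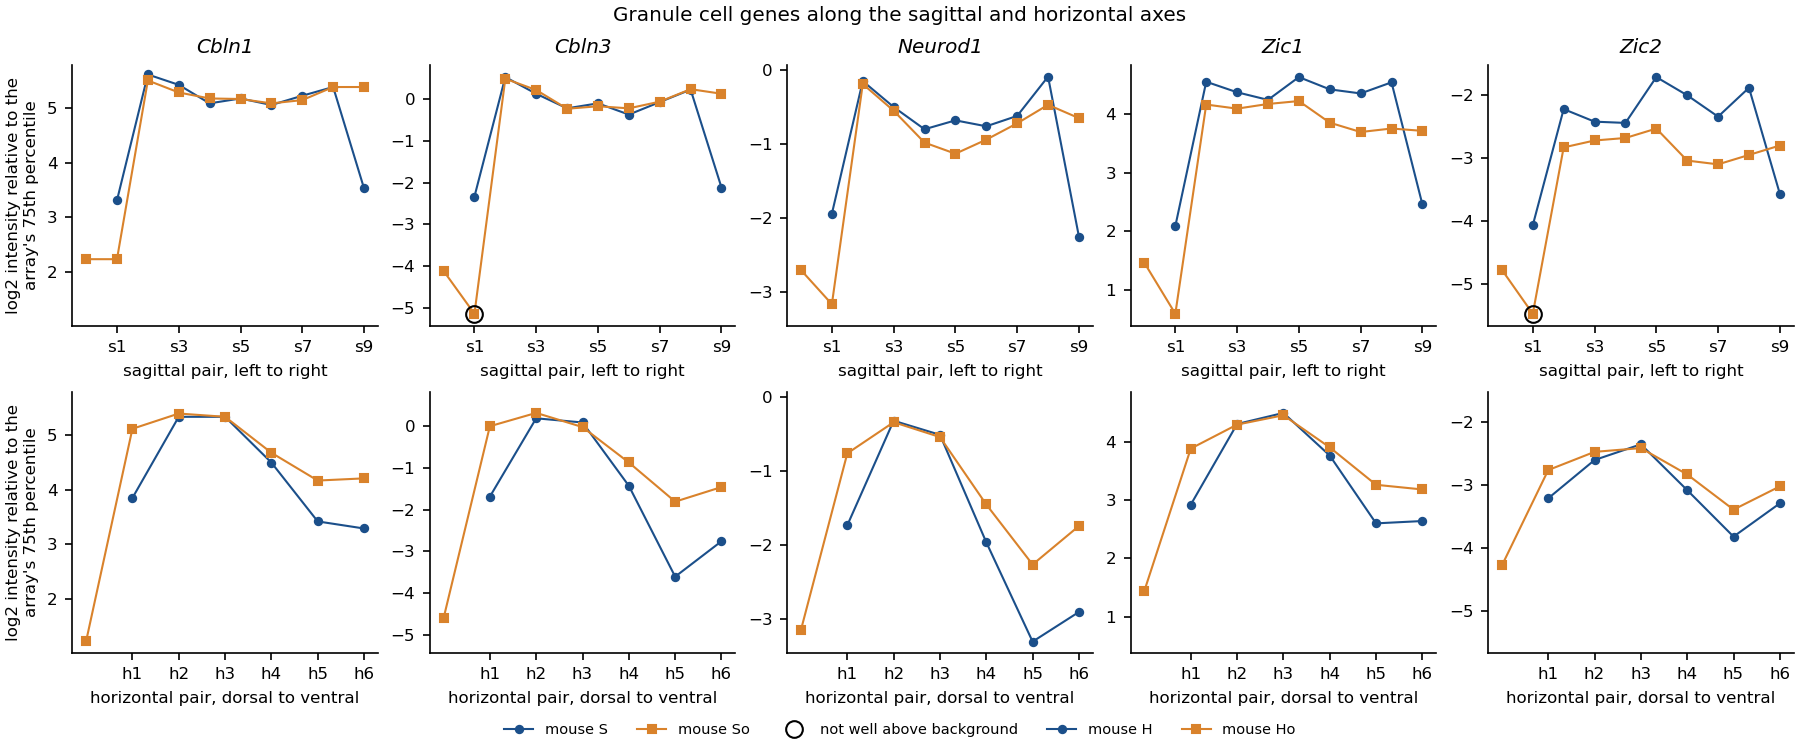
Level of each gene (y axis, log2 intensity relative to the array's 75th percentile, a separate scale for each gene) in the sagittal pairs from left to right (upper row) and the horizontal pairs from dorsal to ventral (lower row). Circles are mice S and H, squares mice So and Ho, with the unpaired So1 and Ho1 at the left, and open rings mark values not well above background. All 5 genes are low in s1, S9 is low while So10 is not, and h2 and h3 are the highest horizontal pairs.

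Along the sagittal axis the 5 genes were low only at the edges of the brain. In mouse S, Cbln1 stood at 3.31 in S1 and 3.53 in S9, and between 5.06 and 5.62 in the 7 fractions between them. In mouse So it stood at 2.23 in both So1 and So2 and between 5.09 and 5.51 in So3 to So10. Cbln3 stood at -2.34 in S1 and -2.12 in S9 against -0.37 to 0.53 in the other fractions of mouse S. In mouse So it was -4.12 in So1 and -5.15 in So2, which was not well above background. The right edge did not match between the mice, because So10, the partner of S9, stood at 5.39 for Cbln1, 0.13 for Cbln3, -0.65 for Neurod1, 3.72 for Zic1 and -2.80 for Zic2, close to So9 for each gene.
Within the cerebellar width the genes divided by where they peaked. Cbln1, Cbln3 and Neurod1 had their highest pair means in s2 and s8, the pairs lateral on each side, and Zic1 and Zic2 in s5, the midline pair. Neurod1 stood at -0.15 in S2 and -0.09 in S8 against -0.68 in S5, and at -0.19 in So3 and -0.47 in So9 against -1.13 in So6. Zic2 stood at -1.71 in S5 and -2.53 in So6, the highest fraction of each mouse. The neighbours in this order from s2 to s8 did not differ beyond their limits for any gene.

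The midline contrast, s4 to s6 minus s1, s2, s8 and s9, called Zic1 and Zic2, beside 19.6% of all probes, 10.6% as higher and 9.01% as lower. Zic1 was higher by 1.02 ± 0.23 and Zic2 by 0.83 ± 0.23, with adjusted p of 0.0011 and 0.0076. Cbln1 differed by 0.58 ± 0.22 (adjusted p = 0.057, or 0.029 with the mouse as a block), Cbln3 by 0.78 ± 0.42 and Neurod1 by 0.23 ± 0.26, with adjusted p of 0.23 and 0.66. The difference of means was carried by the edges. For Cbln1 the median of the 6 midline fractions, 5.13, lay below the median of the 8 lateral ones, 5.39, and likewise for Cbln3 with -0.22 against 0.18 and Neurod1 with -0.87 against -0.56. For Zic1 the medians were 4.24 and 3.74 and for Zic2 -2.48 and -2.89, with the edge pairs s1 and s9 among the lateral ones. Of Zic1 the pair means were 4.37 in s2 and 4.16 in s8, against 4.21, 4.43 and 4.15 in s4, s5 and s6. Those of Zic2 were -2.52 and -2.42, against -2.56, -2.12 and -2.52. Within the 4 slides that held midline and lateral fractions, the midline exceeded the lateral fractions of Zic1 by -0.12, 0.92, 0.03 and 0.12 and those of Zic2 by 0.15, 0.73, 0.22 and -0.17. For Cbln1 the differences were -0.49, 0.60, -0.33 and -0.30. The one slide with a large difference was that of S6 beside S8 and S9. The call of Zic2 was lost without S6 (adjusted p = 0.061), and those of Zic1 and Zic2 held in every other fit that left out 1 fraction.
The left-right difference, s1 to s4 against mirror pairs s9 to s6, called none of the 5 genes with limma, beside 0.235% of all probes. At an unadjusted p under 0.05, 4 of 5 passed, and the share of all probes at that threshold was not counted. Without mouse S, whose absence leaves the lone sample of a pair to vary like the others, Cbln1, Zic1 and Zic2 were called. That fit compared the sides of mouse So alone, with Cbln1 at 2.23 in So2 and 5.39 in So10. The position of its slightly oblique cuts and a left-right difference cannot be told apart there.

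Differences between the 2 mice of a plane passed for Cbln3, Zic1 and Zic2, with F of 3.57, 3.44 and 7.00, beside 63.1% of all probes. Of all probes 29.9% differed between So and S (12.4% higher and 17.5% lower in So), 53.4% between Co and C (26.1% higher and 27.4% lower in Co) and 5.52% between Ho and H (3.92% higher and 1.6% lower in Ho). Mice C and Co were scanned on different days, as were S and So apart from S1, while H and Ho shared a day. The part of the scan day in these differences was not tested. Zic2 was lower in mouse So than in mouse S, by -0.61 ± 0.15 over the 9 pairs with an adjusted p of 0.0036, and stood lower in 8 of the 9, with the exception of s9. Its difference of Co from C was 0.25 ± 0.13 (adjusted p = 0.10). Cbln3 differed by -0.66 ± 0.27 between Co and C (adjusted p = 0.045), whereas its second probe, well above background on all 61 arrays, differed by -0.08 ± 0.24 (adjusted p = 0.81). Between Ho and H none of the 5 was called with limma. At an unadjusted p under 0.05, a threshold not counted over all probes, 3 passed. These were Cbln1, Cbln3 and Neurod1, with differences of 0.53 ± 0.22, 0.89 ± 0.40 and 0.61 ± 0.26. With slide as a random block none of the 3 differences was called, with adjusted p of 0.22 for Cbln3, 0.19 for Zic1 and 0.0501 for Zic2. With its second probe Cbln3 had an F of 2.46 and was not called (adjusted p = 0.12). The calls of Cbln3 and Zic1 were near the threshold, and were lost in 42 and 44 of the 56 fits that left out 1 fraction and with the median of each array as the scale (adjusted p = 0.051 and 0.057). That of Zic2 was kept in all 56. The mice of a plane lay on different slides in all pairs but 1 and were cut at different angles. Mouse, slide and cutting angle thus cannot be told apart.

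The relatives of the members were measured on the same arrays. Of the Zic family, the 4 genes reported here were higher in the caudal contrast, with 2.82 ± 0.23 for Zic5 and 1.76 ± 0.16 for Zic4 beside Zic1 and Zic2. Zic4 lies next to Zic1 on its chromosome and Zic5 next to Zic2. Zic4 stood at -0.90 in C3 and -1.04 in Co5, its highest coronal fractions, and differed by -0.02 ± 0.23 in the rostral contrast, in which Zic1 was higher. Zic5 was well above background in 11 of 13 fractions of mouse C and 7 of 16 of mouse Co, and in 1 of 9 and 0 of 10 of mice S and So, so its low values are bounds. In the midline contrast 3 of the 4 were higher, with 1.09 ± 0.20 for Zic4, and Zic5 did not pass.
Of the cerebellins and their partners 6 of the 7 genes reported here passed in the caudal contrast, 3 as higher and 3 as lower. Beside Cbln1 and Cbln3, the neurexin Nrxn3 was higher by 0.70 ± 0.26, a contrast that differed by -0.77 ± 0.18 in mouse Co against mouse C (adjusted p = 0.01), and Nrxn2, which did not pass, differed by 0.06 ± 0.12. Cbln2 differed by -1.35 ± 0.12 and Cbln4 by -1.03 ± 0.12, the direction opposite to Cbln1. Cbln2 was lowest within the plateau of Cbln1, with -0.43 in C3 and -0.76 in Co4, and highest in C11 and Co13 with 2.13 and 2.11. Grid1, a receptor of the forebrain, differed by -0.54 ± 0.12. In the rostral contrast Cbln1 was the one gene of the 7 that was higher, and Grid1 differed by -0.78 ± 0.18.
Of 9 measured proneural and neuronal basic helix-loop-helix genes, 4 were higher in the caudal contrast, Neurod1, Nhlh2 (2.49 ± 0.23), Neurod2 (0.66 ± 0.11) and Neurog1 (0.50 ± 0.10), and Neurod6, a gene of cortical projection neurons, differed by -3.04 ± 0.13. The probe of Atoh1, which marks granule cell precursors, was not well above background on any array and was not tested. In the rostral contrast 6 of the 9 were lower and none was higher.

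**Figure D5:**
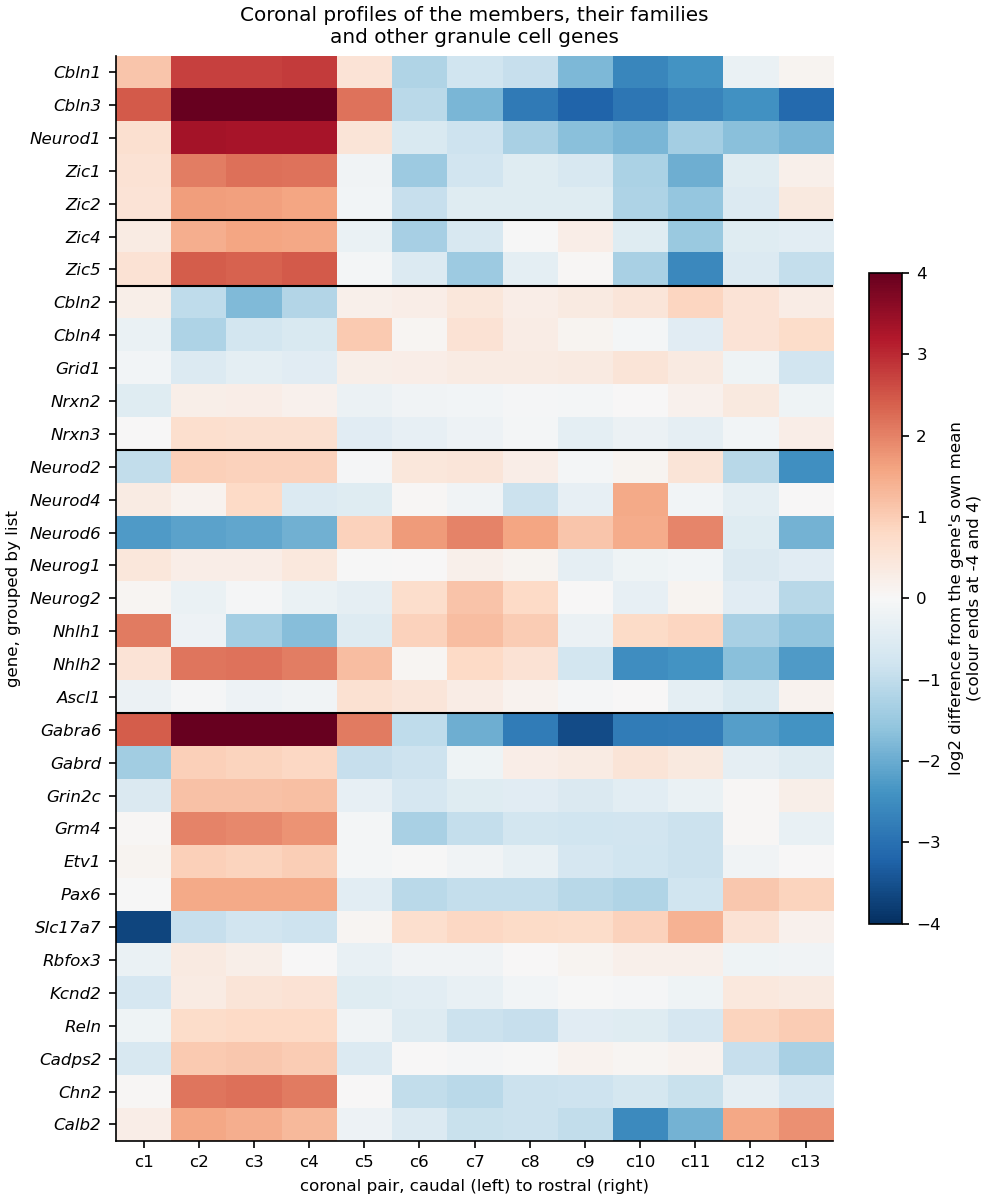
Coronal profile of each gene as the log2 difference of a pair's mean from the gene's own mean over the 13 pairs (colour, red higher and blue lower, ending at -4 and 4), with pairs from caudal to rostral (x axis) and genes in the order of the lists, separated by lines (y axis). Cbln3 and Gabra6 exceed the colour range in c2 to c4, and Cbln2, Cbln4 and Neurod6 lie below their own means there.

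The genes with profiles most like each member were taken as the 3 with the highest Pearson r among 15515 genes over the 61 fractions. For Cbln3 they were Gabra6 (0.99), Crtam (0.99) and Pkp3 (0.98). For Neurod1 they were Il16 (0.98), the Purkinje cell gene Car8 (0.98) and Il22 (0.97). For Cbln1 they were the Purkinje cell gene Ppp1r17 (0.96), Zfp385c (0.95) and Homer3 (0.95). For Zic1 they were Fam107b (0.94), Zfp385c (0.94) and Ppp1r17 (0.93), and for Zic2 Gprc5c, Fam107b and Ppp1r17 (0.92, 0.92 and 0.91). An r above 0.9 was reached by 53 genes for Neurod1, 40 for Cbln3, 35 for Cbln1, 16 for Zic1 and 4 for Zic2. By Spearman's rho the same 3 genes led for Cbln1 and Cbln3, and 2 of the 3 for each of the others.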

How the data were processed

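RNA of 61 brain fractions was hybridised to Agilent 1-colour arrays. The authors scanned them with Agilent Feature Extraction 9.1, per the submitters' processing notes, and deposited for each array the background-subtracted intensity and quality flags of every spot, and a table of intensity values that they normalized per array, used as an alternative. Here log2 processed intensity was averaged over a probe's spots, and the array's 75th percentile over 41174 non-control probes was subtracted. Genes were named through RefSeq identifiers. Linear models with a mean for each of the 28 pairs were fitted with limma 3.58.1 in R 4.3.3 (28 residual and 1.88 prior degrees of freedom), with Benjamini-Hochberg adjustment over 36573 probes well above background on at least 1 array, and called under 0.05. The fit was tested on simulated data with errors independent between arrays. In the real data arrays of a slide had a correlation of 0.54, which the simulation did not cover. Fractions were paired as the study did. Saturated spots numbered 0, and spots with the outlier flag were kept. Leaving them out was an alternative chosen after seeing the data. The 5 genes and the gene lists were chosen with earlier results of these data known. Named genes were the 5, the lists' genes and, for each of the 5, the 3 genes with the highest Pearson r. The number of arrays limits the precision. Residual deviations of fractions of 1 mouse had a median correlation of 0.278, and 115 of 129 such pairs of fractions were over 0.1, against a median of -0.0255 between mice, so the mouse was fitted as a block in an alternative. Some genes of the lists are not reported here.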

Additional observations from a re-analysis of the deposited data

How the results depend on the processing

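All 5 genes passed as varying over the pairs and as higher in the caudal contrast in every fit that left out 1 fraction. With the analysis limited to probes well above background on all arrays, 3 genes remained measured and 3 passed in each, and 1 in the difference between mice. The rostral count of 2 became 1 with slide as a random block, with scan day as a block, without mouse Co and without outlier-marked spots, and 0 with slide as a fixed block and without mouse C. The dorsal count of 4 became 0 with slide as a fixed block and without mouse H. The left-right count of 0 became 3 without mouse S. The difference between mice, 3 genes, became 1 with median scaling, the authors' normalized table, normexp with quantile normalization or no moderation, and 0 with slide as a random block. Leaving out 1 fraction gave 5 to 5 genes for variation and the caudal contrast, 1 to 3 rostral, 1 to 4 midline, 3 to 4 dorsal, 0 to 1 left-right, 1 to 5 between mice, 0 to 1 for the caudal contrast of Co against C, 10 to 10 for unequal and caudal ratios and 4 to 7 for rostral ratios. Where a mouse was left out, the lone fraction of a pair was assumed to vary like the others. The cause of these changes was not tested.

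Pairing fractions by their own number, which matches different positions, gave 0 genes in the rostral, midline and dorsal contrasts and between mice and 0 rostral ratios. It turned the rostral differences of Cbln1, Zic1 and Zic2 to -0.26, -0.15 and -0.13, the Co against C differences of Cbln3, Neurod1, Zic1 and Zic2 to -1.89, -1.49, -0.70 and -0.10, the caudal ratio of Cbln1 to Neurod1 to 0.19, and the rostral ratios of Cbln1 to Zic1, Cbln1 to Zic2, Cbln3 to Neurod1 and Zic1 to Zic2 to -0.12, -0.13, -0.76 and -0.013. Normexp with quantile normalization called 1 gene in Co against C, turned the differences of Cbln1 and Cbln3 there to 0.035 and -0.20, and the caudal ratio of Cbln1 to Neurod1 to 0.48. The rostral ratio of Cbln3 to Neurod1, not called, was -0.0058 without mouse C and -0.079 to 0.31 when 1 fraction was left out. The Co against C difference of Cbln1 was then -0.26 to 0.062.

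With the mouse as a replicate block the counts were 5 for variation, 5 caudal, 3 rostral, 3 midline, 5 dorsal, 0 left-right, 10 unequal, 10 caudal and 8 rostral ratios. The block added Zic2 rostral and dorsal, Cbln1 midline, and the rostral ratios of Cbln1 and Cbln3 to Zic2, and changed no other call. It raised the probes called in the midline contrast from 7163 to 12170, in the dorsal contrast from 4599 to 9178 and left-right from 86 to 422.

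Of the counts over all probes, variation had 22417, and 14773 on probes above background on all arrays. The caudal contrast had 18904, and 4951 with slide as a fixed block. The rostral contrast had 13543, against 7236 with slide fixed and 4079 by own number. The midline contrast had 13495 with slide fixed, 12369 with scan day, 3146 by own number and 3609 without mouse S. The dorsal contrast had 1417 with slide fixed, 9808 with scan day, 2091 by own number, 1358 without mouse H and 2466 without mouse Ho. The left-right difference had 17 to 1642 over the settings. The difference between mice had 23079, and 10681 with slide as a random block. Co against C had 2592, and 1412 to 4197 without 1 fraction.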

Other observations

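Lists of cells outside the cerebellum were measured beside the 5 genes. Of 6 thalamus and habenula genes, 1 was higher and 4 were lower in the caudal contrast, with a median of -1.06, and 5 were higher in the midline contrast, with a median of 1.75. Of 3 measured dentate gyrus genes, another site of granule cells, 2 were higher and 1 was lower in the caudal contrast, and all 3 were lower in the rostral contrast, with a median of -2.66. Of 7 olfactory bulb genes, 6 were lower and 1 was higher in the caudal contrast, with a median of -1.56. Of 5 choroid plexus genes, 4 were lower and 1 was higher in the rostral contrast, with a median of -2.35.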
